A study of Homo sapiens with 13 samples.

Results

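The genes described here are 10 components of the NF-kB pathway: the subunits RELA, RELB, REL, NFKB1 and NFKB2, the inhibitors NFKBIA, NFKBIB, NFKBIE and TNFAIP3, and the kinase IKBKB. They were listed by symbol, with earlier results of these data known, and all 10 were found among the 24875 gene symbols of the Silvestrol experiment and among the 13121 of the INK128 experiment. Ribosome footprints (RFs), the mRNA fragments protected by translating ribosomes, and RNA were sequenced from MDA-MB-231, a human breast cancer cell line. In the Silvestrol experiment, RF libraries were made after 1 h and after 2 h of treatment with 25 nM Silvestrol or with its solvent DMSO, and 1 RF library was made without any treatment. Silvestrol inhibits eIF4A, the RNA helicase that unwinds 5′ UTRs for the scanning ribosome. All of these cells were at passage 3, and the 2 h RF treatments were repeated at passage 4, so that the 2 h RF groups have 2 libraries each and every other group has 1. The mRNA libraries, 1 for DMSO and 1 for Silvestrol, were from passage 3 at 2 h. In the INK128 experiment, RFs and total RNA were sequenced from passage 3 cells given DMSO or 200 nM INK128, an mTOR kinase inhibitor, for 2 h, with 1 library per group. The same line was used throughout, no stimulus of NF-kB such as TNF is named for any group, and the cultures at 2 passages are the only separate samples of a treatment.

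NF-kB is a family of dimeric transcription factors that are held in the cytoplasm of resting cells by the IkB proteins. Upon stimulation, the IkB kinase complex, of which the IKBKB product is a catalytic subunit, phosphorylates the IkB proteins, which are then degraded by the proteasome, and the freed dimers activate their target genes. Among those targets are NFKBIA, which encodes IkB-alpha, and TNFAIP3, which encodes a ubiquitin-editing enzyme, so both act as feedback inhibitors that have to be made anew after each round of signalling, whereas RELA protein is stable. MDA-MB-231 cells are known for constitutive NF-kB activity.

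The promoters of the members are shown because the feedback loop runs through them. In the RefSeq promoter table (GRCh38.p14, 250 bases before to 50 bases after each start site), 7 of the 10 members matched, by 12 windows. A match to the kB motif consensus, searched on both strands, was present in at least 1 window of 6 of these 7 genes: REL, NFKB1, NFKB2, NFKBIA, NFKBIB and TNFAIP3, but not RELA. Among the 8509 genes that were used for translational efficiency and had a window, 17.5% held a match, and the share over all windows (35116) was 11.3%. The 250 bases upstream of the start site are given for the feedback inhibitors NFKBIA and TNFAIP3 and for NFKB1, with kB matches in capitals.
NFKBIA promoter, chr14:35404750-35404999, minus strand: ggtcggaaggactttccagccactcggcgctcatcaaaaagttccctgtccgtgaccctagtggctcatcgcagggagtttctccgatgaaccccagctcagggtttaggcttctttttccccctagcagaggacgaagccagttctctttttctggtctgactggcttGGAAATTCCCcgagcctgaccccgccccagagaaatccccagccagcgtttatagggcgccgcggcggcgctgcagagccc
TNFAIP3 promoter, chr6:137867009-137867258, plus strand: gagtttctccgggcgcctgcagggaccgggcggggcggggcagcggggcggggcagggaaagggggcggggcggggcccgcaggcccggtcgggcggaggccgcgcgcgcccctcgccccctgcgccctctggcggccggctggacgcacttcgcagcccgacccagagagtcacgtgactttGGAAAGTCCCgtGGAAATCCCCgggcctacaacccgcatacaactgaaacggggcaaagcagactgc
NFKB1 promoter, chr4:102501109-102501358, plus strand: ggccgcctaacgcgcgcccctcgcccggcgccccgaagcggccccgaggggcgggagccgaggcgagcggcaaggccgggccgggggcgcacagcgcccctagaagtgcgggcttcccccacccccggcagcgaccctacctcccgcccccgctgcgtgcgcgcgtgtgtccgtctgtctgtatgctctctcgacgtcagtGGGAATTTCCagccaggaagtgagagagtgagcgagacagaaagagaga

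In NFKBIA the match began 81 bases before the start site. TNFAIP3 had a pair of matches on the same strand, which began 67 and 55 bases before it, and the match of NFKB1 began 49 bases before it. In REL, NFKB2 and NFKBIB, a match on one strand overlapped a match on the other. A match describes these letters only, and binding was not measured in these data.

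The 3′ UTRs are shown because AU-rich elements, which contain the pentamer ATTTA, are a known feature of short-lived mRNAs. In the GENCODE version 44 annotation of GRCh37, the build that the authors call hg19, the pentamer occurred 3 times in NFKBIA, 5 times in TNFAIP3, 3 times in NFKB1, 25 times in REL and once each in NFKB2 and IKBKB. RELA, RELB, NFKBIB and NFKBIE had none, while 74.3% of the 10211 genes with annotated UTRs had at least 1. The density was 6.76 per kb in NFKB2, 6.0 in NFKBIA and 4.24 in NFKB1, at percentiles 96.3, 94.5 and 86.1 of those genes, and the 25 pentamers of REL lay in a 3′ UTR of 9077 bases, at 2.75 per kb. That of NFKB2 came from 1 pentamer in a 3′ UTR of 148 bases. By number, the 3 pentamers of NFKBIA and of NFKB1 were at percentile 51.4. TNFAIP3 had a density of 2.51 per kb, at percentile 63.5. The windows of 30 bases with the most pentamers are given with the pentamer in capitals.
NFKBIA 3′ UTR, chr14:35871115-35871144, minus strand: aaagaagaaaaaATTTAaagggtgtactta
TNFAIP3 3′ UTR, chr6:138203435-138203464, plus strand: gtaattcactttATTTAttttattacaaac
NFKB1 3′ UTR, chr4:103537863-103537892, plus strand: gaatcattctcgATTTAactcgagaccttt
REL 3′ UTR, chr2:61151377-61151406, plus strand: tactaagtATTTAttcATTTActgtttgtt

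Counted reads ranged from 2652423 to 31188148 in the 7 RF libraries and were lowest for Silvestrol at passage 4, and the mRNA libraries had 24792922 and 50315607. Most markers fitted the labelled cell line: vimentin (VIM) RFs were at 4789 to 7031 RPKM, CD44 at 138 to 344 and KRT18 at 47.4 to 95.4, E-cadherin (CDH1) RFs reached 0.108 at most, ESR1 was at 0 in every library and RFs of the leukocyte marker PTPRC were at 0.0307 or less. PTPRC mRNA reached 0.0519 RPKM. PECAM1, also listed as a marker of other cells, had no RF value and mRNA at 0.826 to 0.863 RPKM. Of the markers listed as present, EPCAM was low at 3.24 to 9.94 RPKM and KRT8 ranged from 0 to 22.3, and ERBB2, listed as low, had mRNA at 18.7 to 25.8 RPKM with RFs at 1.63 to 4.05. RPKM values are reads scaled to the counted length of a gene and to the size of the library. The median gene fell by 0.18 on the log2 RPKM scale at 1 h of Silvestrol, and by 0.17 and 0.15 at 2 h in passages 3 and 4, so members are also given relative to that shift where it matters.

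In control cells, the RF levels of the members spanned a wide range, and the order of the levels is a description of 4 libraries, untreated and DMSO. NFKBIA, with a median of 151 RPKM (113 to 223), and RELA, with 125 (101 to 134), had the most RFs per length, and their ranges overlapped. NFKB2 followed with a median of 58.1 RPKM (35.3 to 63.0), NFKBIE with 50.2, NFKB1 with 42.1, NFKBIB with 33.9, IKBKB with 22.4 and RELB with 21.3. REL at 7.51 RPKM (6.34 to 8.10) and TNFAIP3 at 4.75 (2.29 to 7.56) were the lowest. TNFAIP3, NFKBIA and NFKBIB varied most between the control libraries. The highest control value of TNFAIP3 was 3.30-fold the lowest, a wider range than in 97.7% of genes, and that of NFKBIA and of NFKBIB was 1.96-fold, against 1.32-fold for the median gene. NFKB1 and IKBKB varied by 1.16-fold and 1.18-fold. For TNFAIP3, NFKBIA and NFKBIB, the highest control value came from DMSO at 2 h in passage 3 and the lowest from DMSO at 2 h in passage 4.

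**Figure D1:**
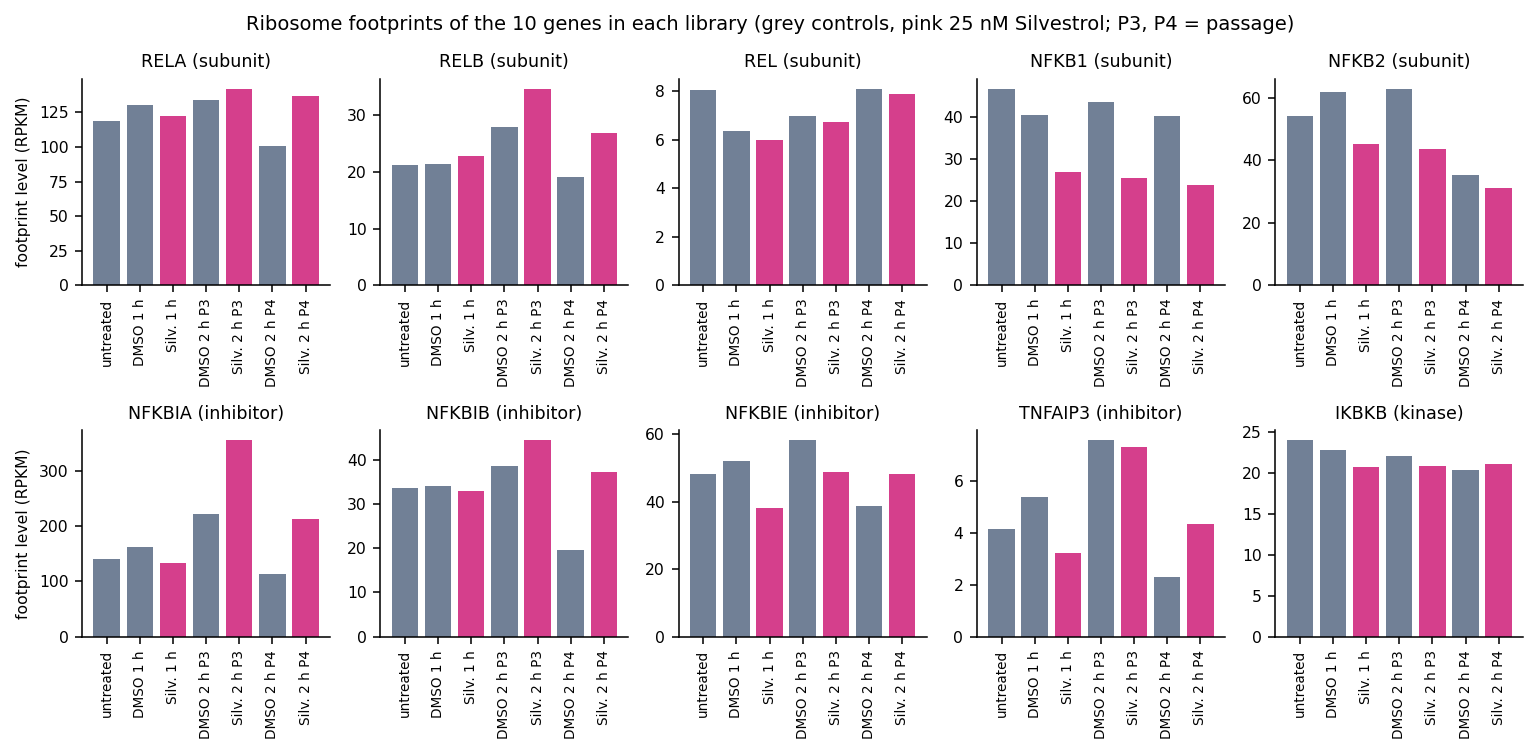
RF level (RPKM, linear axis from 0) of each member in the 7 RF libraries of the Silvestrol experiment, with 1 bar per library, controls in grey and 25 nM Silvestrol in pink. NFKB1 stood at 23.8 to 27.0 RPKM in the Silvestrol libraries and at 40.2 to 46.8 in the controls, and NFKBIA reached 357 RPKM with Silvestrol at 2 h in passage 3.

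Among the subunits, NFKB1 was the one whose Silvestrol libraries all lay below every control library, and RELA and RELB were called with more RFs at 2 h when the passage was a block, at lower mRNA levels. NFKB1, which encodes the precursor of the DNA-binding subunit of the classical dimer, was at 46.8 RPKM in untreated cells, 40.6 with DMSO and 27.0 with Silvestrol at 1 h, 43.6 and 25.5 at 2 h in passage 3, and 40.2 and 23.8 at 2 h in passage 4. The 3 Silvestrol libraries thus lay below all 4 controls, as they did for 32.9% of the 10502 genes compared, and the 2 h pairs alone were separated in this direction for 40.1% of genes. In the edgeR quasi-likelihood test on the 4 libraries at 2 h, NFKB1 RFs changed by −0.63 on the log2 scale (SE 0.15, adjusted p = 0.0674), which missed the threshold of 0.05. With the passage as a block the change passed the test (−0.63, SE 0.11, adjusted p = 1.26e-07 in edgeR). The blocked fit leaves 1 residual degree of freedom per gene, and edgeR then used a spread shared by all genes, so that its SE and p-values, here and for every other blocked result, do not measure how a single gene varied between cultures. NFKB1 mRNA was at 17.4 RPKM with DMSO and 21.2 with Silvestrol, so that the fall in RFs was not accompanied by a lower mRNA level.

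RELA, the main transactivating subunit, had RFs at 119 RPKM in untreated cells, 130 with DMSO and 122 with Silvestrol at 1 h, 134 and 142 at 2 h in passage 3, and 101 and 137 at 2 h in passage 4. Both Silvestrol libraries at 2 h lay above both DMSO libraries, as for 20.5% of genes, but the 1 h library did not lie above the controls. No member had all 3 Silvestrol libraries above all controls, which 10.2% of genes had. The change at 2 h was 0.40 (SE 0.17, adjusted p = 0.187 in edgeR) without the block and 0.40 (SE 0.10, adjusted p = 0.000153) with it. RELB, a subunit of the non-canonical pathway, was at 21.3 RPKM untreated, 21.4 and 22.8 with DMSO and Silvestrol at 1 h, 27.97 and 34.7 at 2 h in passage 3, and 19.1 and 26.8 in passage 4. Silvestrol was higher within each pair, yet the 2 h groups overlapped across the passages. The log2 change of RELB was 0.52 (SE 0.28, adjusted p = 0.288 in edgeR), and 0.52 (SE 0.13, adjusted p = 0.000423) with the block. Without the block, RELB was at 0.87 when the passage 3 DMSO library was left out, 0.26 without the passage 4 DMSO library and 0.25 without the passage 3 Silvestrol library, and RELA was at 0.23 without the passage 4 DMSO library. For both genes the mRNA went the other way, from 79.7 to 62.0 RPKM for RELA and from 26.9 to 21.6 RPKM for RELB.

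NFKB2, the precursor of the non-canonical DNA-binding subunit, had RFs at 54.3 RPKM untreated, 61.9 and 45.3 with DMSO and Silvestrol at 1 h, 63.0 and 43.8 at 2 h in passage 3, and 35.3 and 31.3 in passage 4. It was lower with Silvestrol in each pair, but passage 4 was low in both arms, so that the groups overlapped, and the change of −0.21 at 2 h did not pass the edgeR test (adjusted p = 0.71, and 0.113 with the block). Relative to the median gene, the NFKB2 log2 ratio was −0.27 at 1 h, −0.35 at 2 h in passage 3 and −0.025 in passage 4. REL RFs, at 8.04 RPKM untreated and 5.98 to 8.10 in the other 6 RF libraries, showed no change that could be told from the spread (0.08, SE 0.22, adjusted p = 0.841 in edgeR). The 95% interval of the REL change was −0.47 to 0.63. REL mRNA was at 1.18 RPKM with DMSO (193 reads) and 2.01 with Silvestrol (169 reads), a log2 ratio of 0.77 with a 95% counting interval of 0.46 to 1.07.

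Of the 10 members, NFKBIA had the largest log2 RF change in the 2 h fit on all 4 libraries, though not in every fit without 1 of them. NFKBIA RFs were at 141 RPKM in untreated cells and, at 1 h, at 162 with DMSO and 134 with Silvestrol. The 2 h values of DMSO and Silvestrol were 223 and 357 in passage 3 and 113 and 214 in passage 4. Silvestrol was thus 1.60-fold and 1.88-fold higher within the passages, while the passages differed by as much as the treatments and the 2 groups overlapped. Without the block the change was 0.90 (SE 0.43, adjusted p = 0.241 in edgeR), and with it 0.92 (SE 0.10, adjusted p = 1.24e-19). The unblocked NFKBIA change was 1.52 without the passage 3 DMSO library, 0.47 without the passage 4 DMSO library and 0.40 without the passage 3 Silvestrol library, none of them called. NFKBIA was at percentile 94.9 of all genes in passage 3 and 97.2 in passage 4 by the change in RFs, but at percentile 43.1 at 1 h. Its mRNA was at 52.3 RPKM with DMSO and 66.0 with Silvestrol.

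NFKBIB, which encodes IkB-beta, was at 33.6 RPKM untreated, 34.3 and 33.1 with DMSO and Silvestrol at 1 h, 38.6 and 44.6 at 2 h in passage 3, and 19.7 and 37.4 in passage 4. The DMSO value of passage 4 was the lowest of all 7, and the change at 2 h was 0.61 (SE 0.38, adjusted p = 0.341 in edgeR) without the block and 0.61 (SE 0.14, adjusted p = 8.09e-05) with it. Without the block the NFKBIB change was 1.24 without the passage 3 DMSO library (adjusted p = 0.0469 in edgeR), 0.19 without the passage 4 DMSO library (adjusted p = 0.637) and 0.40 without the passage 3 Silvestrol library. NFKBIE, which encodes IkB-epsilon, was at 48.3 RPKM untreated, 52.1 and 38.0 at 1 h, 58.3 and 49.0 at 2 h in passage 3, and 38.6 and 48.3 in passage 4. It was lower with Silvestrol at passage 3 and higher at passage 4, and its change of 0.12 (SE 0.25) did not pass the edgeR test (adjusted p = 0.781, and 0.411 with the block).

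TNFAIP3 stood apart from the other members by its mRNA. TNFAIP3 mRNA was at 1.74 RPKM with DMSO (487 reads) and at 4.64 with Silvestrol (668 reads), 2.67-fold higher, with a log2 ratio of 1.42 and a 95% counting interval of 1.25 to 1.59. This put it at percentile 99.2 of all genes by mRNA change. It was the only member at least 2-fold changed in mRNA, against a background of 4.7% of genes at least 2-fold higher and 1.93% at least 2-fold lower, and with 1 library per treatment the difference has no replicate check. Its RFs were at 4.13 RPKM untreated, 5.38 and 3.20 with DMSO and Silvestrol at 1 h, 7.56 and 7.30 at 2 h in passage 3, and 2.29 and 4.34 in passage 4, where they rest on 45 and 36 reads. The RF groups overlapped fully, and the change of 0.36 (SE 0.63, adjusted p = 0.743 in edgeR, and 0.127 with the block) did not pass the test.

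Over the 7 RF libraries, the kinase gene IKBKB had the narrowest range of the 10 members, 1.18-fold. Its RFs were at 24.0 RPKM untreated, 22.8 and 20.7 with DMSO and Silvestrol at 1 h, 22.1 and 20.8 at 2 h in passage 3, and 20.3 and 21.0 in passage 4, and its mRNA was at 14.3 and 14.1 RPKM. The change in IKBKB RFs at 2 h was 0.11 with a 95% interval of −0.31 to 0.52 (adjusted p = 0.703 in edgeR, and 0.544 with the block).

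**Figure D2:**
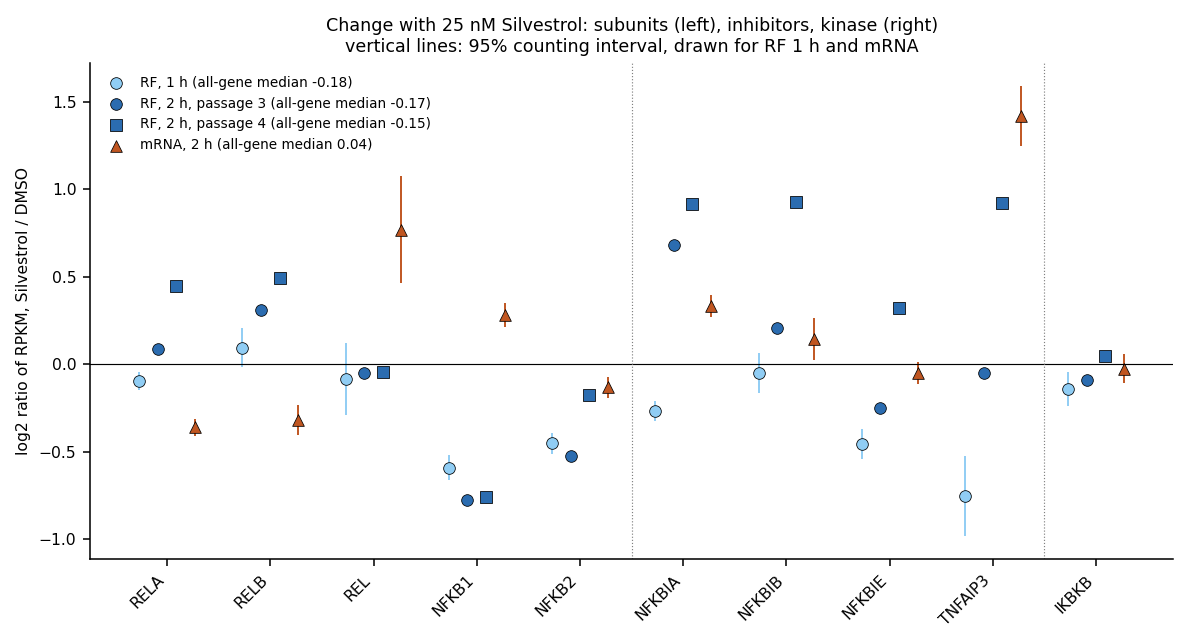
Log2 ratio of RPKM, Silvestrol over DMSO, for each member: RFs at 1 h, RFs at 2 h in passages 3 and 4, and mRNA at 2 h, with the median of all genes in the key and vertical lines for the 95% counting interval of the unreplicated comparisons. The RF ratios of NFKB1 lay at −0.59, −0.78 and −0.76, those of NFKBIA at −0.27, 0.68 and 0.91, and the mRNA ratio of TNFAIP3 was at 1.42.

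Without the block, 0 of the 10 members passed the RF test in either direction, where 5.98% of the 11194 genes tested passed as lower and 1.56% as higher, and 3312 genes had an unadjusted p under 0.05. DESeq2, by which 8.93% of genes were lower and 5.35% higher, called none of the members either. With the passage as a block, NFKB1 passed as lower, against 26.7% of genes, and RELA, RELB, NFKBIA and NFKBIB passed as higher, against 23.9%. With 10 members these counts are no result about the members as a set. Grouped by role, the median log2 change in the unblocked fit was 0.08 over the 5 subunits and 0.49 over the 4 inhibitors, with −0.02 over all genes. The inhibitor values depended on single libraries. Without the passage 4 DMSO library, NFKBIA, NFKBIB, NFKBIE and TNFAIP3 were at 0.47, 0.19, −0.17 and −0.22. Without the passage 3 DMSO library they were at 1.52, 1.24, 0.51 and 1.57. By RPKM, the median of the inhibitors was −0.36 at 1 h, 0.08 at 2 h in passage 3 and 0.92 at 2 h in passage 4, while that of the subunits was −0.09, −0.05 and −0.04. The subunit median covers members of opposite sign, with NFKB1 at −0.78 and RELB at 0.31 in passage 3 and the same genes at −0.76 and 0.49 in passage 4, and no test of a difference between the roles was made.

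At 1 h, where each group has 1 library, the members that were lower with Silvestrol beyond counting error were RELA, NFKB1, NFKB2, NFKBIA, NFKBIE, TNFAIP3 and IKBKB, and no member was higher beyond it. Of all 10515 genes, 51.1% were lower and 20.1% higher by the same criterion, and RELA and IKBKB, at −0.094 and −0.14, lay above the median gene at −0.18. TNFAIP3 was lowest, with a log2 ratio of −0.75 (95% counting interval −0.98 to −0.52), followed by NFKB1 at −0.59 (−0.66 to −0.52). These intervals cover counting error only. With TMM scaling of the counts in place of RPKM the median of the members moved from −0.21 to 0.019, NFKB1 was at −0.36 and NFKBIA at −0.043, so that signs near 0 depend on the scaling. None of the members reached a 2-fold change at 1 h, where 7.99% of genes were at least 2-fold lower and 0.333% at least 2-fold higher.

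The NFKBIA ratio was −0.27 at 1 h (95% counting interval −0.33 to −0.21) and 0.68 and 0.91 at 2 h. The difference between the 2 h and 1 h changes was tested as an interaction of time and treatment over 6 RF libraries, a test added after the values were seen, in which the single 1 h libraries are assumed to vary like the 2 h libraries. With the passage as a block, NFKBIA differed by 1.04 (SE 0.17, adjusted p = 3.24e-07 in edgeR), as the only member called, against 0.73% of the 12059 genes tested called as higher and 1.02% as lower. Without the block 0 genes were called, 109 had an unadjusted p under 0.05, and the adjusted p of NFKBIA was 1. TNFAIP3 differed by 0.96 (SE 0.31, adjusted p = 0.0867 with the block), and the difference for NFKB1 was −0.19 (adjusted p = 0.764).

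Set against RELA within each library, which removes the scaling between libraries, NFKBIA was at 1.19 times the RELA RF level in untreated cells, at 1.24 with DMSO and 1.10 with Silvestrol at 1 h, at 1.66 and 2.51 at 2 h in passage 3, and at 1.13 and 1.56 in passage 4. In mRNA the same ratio was 0.657 with DMSO and 1.06 with Silvestrol. NFKB1 was at 0.311 to 0.400 of RELA in the 4 control RF libraries and at 0.174 to 0.221 in the 3 Silvestrol libraries, without overlap, as for 37.3% of the 10501 genes set against RELA, whereas in mRNA it was at 0.219 with DMSO and 0.342 with Silvestrol. The NFKB1 to RELA ratio was thus lower with Silvestrol in RFs and higher in mRNA.

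**Figure D3:**
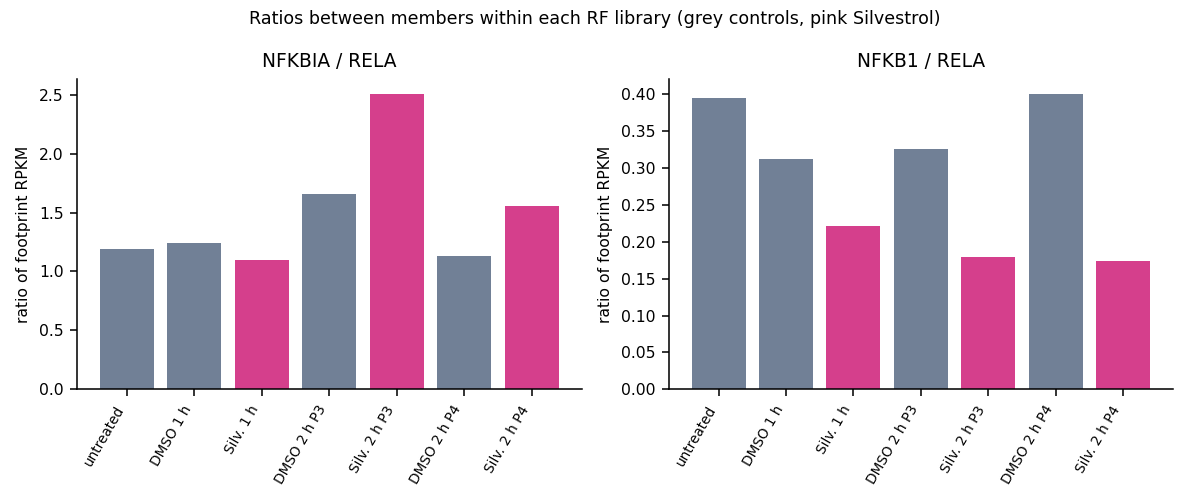
Ratio of the RF level (RPKM) of NFKBIA to RELA and of NFKB1 to RELA in each RF library, with bars from 0, controls in grey and Silvestrol in pink. The NFKBIA ratio was highest, at 2.51, with Silvestrol at 2 h in passage 3, and the NFKB1 ratio was at most 0.221 with Silvestrol and at least 0.311 in the controls.

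The genes whose RF levels over the 7 RF libraries followed NFKBIA most closely were ARRDC1 (Pearson r of log2 RPKM 0.980), SEPX1 (0.974) and, as the third of 10501 genes, the member RELB (0.972). RELA had r = 0.855, TNFAIP3 0.842 and NFKBIB 0.815, whereas NFKB1 had −0.468 and REL −0.181. The 7 libraries share depth and passage differences, so these coefficients describe likeness over few points.

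Translational efficiency (TE) is the ratio of RF to mRNA RPKM, the reads of ribosomes on a gene set against those of its mRNA. At 2 h in passage 3 the TE of RELA was 1.68 with DMSO and 2.29 with Silvestrol, that of RELB 1.04 and 1.61, that of NFKB1 2.5 and 1.20, and that of NFKBIA 4.26 and 5.405. The TE of TNFAIP3 was 4.35 with DMSO and 1.57 with Silvestrol, because RFs at 7.56 and 7.30 RPKM met mRNA at 1.74 and 4.64 RPKM. Expressed as a z-score over the 10526 genes used, TNFAIP3 was lowest among the members at −1.15 and RELB highest at 0.93. With the RFs of passage 4 over the same mRNA, TNFAIP3 was at −0.21, NFKB1 was lowest at −0.77, and RELA and RELB were both at 1.16, so that the place of TNFAIP3 rested on passage 3. No member passed the limits of −1.5 and 1.5 in either passage, which 6.29% of genes passed below and 4.36% above in passage 3.

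In the edgeR model of RFs and mRNA together, the single mRNA library of each treatment is assumed to vary like the RF libraries. Without the block no member was called, where 0.0214% of the 14022 genes tested were called as lower and 0.0% as higher, with 2525 genes at an unadjusted p under 0.05. DESeq2, which called 3.89% of genes lower and 2.76% higher, called no member either. With the passage as a block, TE was higher for RELA (0.84, SE 0.19, adjusted p = 8.12e-05), RELB (0.95, SE 0.23, adjusted p = 0.000243) and NFKBIA (0.69, SE 0.19, adjusted p = 0.00152). It was lower for NFKB1 (−0.81, SE 0.20, adjusted p = 0.000391) and TNFAIP3 (−0.93, SE 0.33, adjusted p = 0.0178). The block called 17.7% of genes lower and 17.3% higher. NFKBIB, at 0.58, missed the threshold with the block (adjusted p = 0.0504). Without the block, some TE changes depended on single libraries. NFKBIA was at 1.29 without the passage 3 DMSO library, 1.07 without the passage 4 Silvestrol library, 0.22 without the passage 4 DMSO library and 0.14 without the passage 3 Silvestrol library. RELB was at 1.29 (adjusted p = 0.03465 in edgeR) without the passage 3 DMSO library and 0.63 without the passage 3 Silvestrol library. NFKBIB, at 0.57 on all libraries, was at 1.18 without the passage 3 DMSO library, 0.12 without the passage 4 DMSO library and 0.31 without the passage 3 Silvestrol library. For TNFAIP3, the unblocked change was −1.56 without the passage 4 DMSO library (adjusted p = 0.0314 in edgeR) and 0.25 without the passage 3 DMSO library. All TE values rest on 1 mRNA library per treatment, and since the control mRNA values carry no treatment name and 1 label field calls that library untreated, DMSO and untreated cells cannot be told apart as its source.

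**Figure D4:**
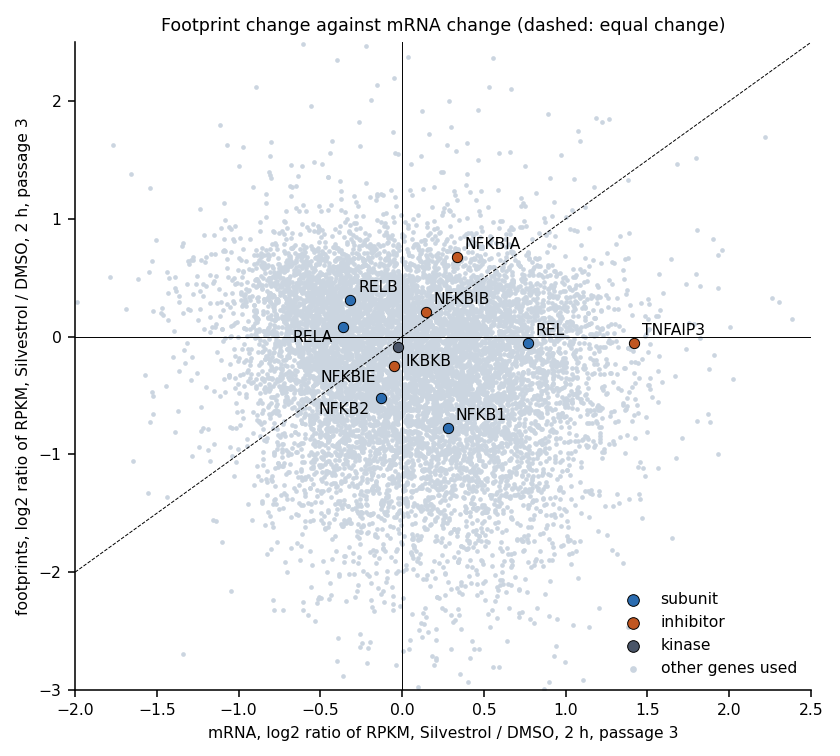
Log2 ratio of RF RPKM against log2 ratio of mRNA RPKM, Silvestrol over DMSO, at 2 h in passage 3, with the members named and coloured by role and the other genes used in grey (genes beyond the axes are not drawn). RELA and RELB lay above the dashed line of equal change, and NFKB1, REL and TNFAIP3 below it, with TNFAIP3 at 1.42 in mRNA and −0.05 in RFs.

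Features of the 5′ UTR, through which eIF4A acts, were compared with those of 10211 genes. The 5′ UTR of NFKB1 was the longest of the members at 437 bases, with 79.9% GC and a predicted minimum free energy of −227 kcal/mol (RNAfold), and 5.88% of genes had a more negative value. Per base NFKB1 did not stand apart, at −0.519 kcal/mol beside −0.519 for REL and −0.516 for NFKBIE, with a median of −0.376 over the genes. NFKBIB, with 64 bases and −37.0 kcal/mol, had the most negative value per base of the members, −0.578. The 5′ UTRs of NFKBIA, RELB and RELA had 105, 116 and 84 bases, with −35.2, −45.3 and −29.9 kcal/mol and 81.0%, 83.6% and 76.2% GC, against medians of 132 bases, −51.5 kcal/mol and 67.6% GC. REL had 267 bases and −138.6 kcal/mol, and NFKBIE 205 bases and −105.7 kcal/mol. No relation of these features to TE was tested over the 10 members. The 5′ UTR of TNFAIP3 had 299 bases and −128.5 kcal/mol. An upstream ATG was present in RELA, NFKB1, TNFAIP3 and IKBKB, once in each, where 38.7% of genes had at least 1, and no member had a run of 4 CGG trinucleotides, which 4.67% of genes had.

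The other genes of the pathway were taken by role. The lists were chosen with earlier results of these data known. Of 8 other kinase genes of the pathway in the RF test, 1 was called without the block, MAP3K3, which fell (−1.43, SE 0.20, adjusted p = 0.0284 in edgeR), where 5.98% of all genes were lower and 1.56% higher. With the block 2 were lower and 1 higher, where 26.7% and 23.9% of all genes were. In the blocked fit IKBKE was at −1.20 and MAP3K14, the kinase of the non-canonical pathway, at 0.85, and neither was called without it. Of 30 receptors, adaptors and ubiquitin ligases, BIRC2 (−1.36, adjusted p = 0.0383) and CUL1 (−1.35, adjusted p = 0.0261), both parts of ubiquitin ligases, fell in edgeR without the block, 2 of 30 beside 5.98% of all genes. With the block 8 were lower and 10 higher beside the same 26.7% and 23.9% of all genes. In the blocked fit TRAF3, at −1.47, was among the lower ones and IRAK2, at 0.84, and BIRC3, at 0.73, among the higher ones. Of 14 other inhibitors none was called without the block, and with it 4 were higher and 0 lower: ZC3H12A (1.32), NFKBIZ (1.08), BCL3 (0.98) and TNIP2 (0.64), by their values in the blocked fit, beside 23.9% and 26.7% of all genes.

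Of 18 target genes in the RF test, TNFAIP2 (−0.81, adjusted p = 0.0465) and the anti-apoptotic BCL2L1 (−1.29, adjusted p = 0.0223) fell, and IL6 (1.02, adjusted p = 0.0425) and IRF1 (0.82, adjusted p = 0.0351), named here after their values were seen, rose in edgeR, where 5.98% of all genes were lower and 1.56% higher. With the block, 3 were lower, CFLAR at −1.01 among them, and 10 were higher, among them CXCL2 (2.06), PTGS2 (1.35) and CXCL1 (0.99), where 26.7% of all genes were lower and 23.9% higher. In mRNA, with 1 library per treatment, 18 of the 25 listed targets had a mean of at least 0.3 RPKM, a minimum on mRNA alone that was chosen after the data were seen. Of these 18, 8 were at least 2-fold higher with Silvestrol, all of them also over the minimum with DMSO, and 1 was at least 2-fold lower, beside 6.2% and 2.73% of the 13155 genes over the same minimum. With the RF minimum of the TE scores the counts were 8 and 0 of 17. The median log2 mRNA ratio was 0.64 over the 18 targets and 0.048 over those genes. CXCL2 mRNA was at 3.14 RPKM with DMSO and 19.9 with Silvestrol, and the mRNA of VCAM1, the lower one, which was named after its values were seen, at 0.927 (182 reads) and 0.397 (40 reads). The RF change of VCAM1 was 1.25 with the block (adjusted p = 0.0226 in edgeR) and 1.04 without it (adjusted p = 0.292, not called). VCAM1 RFs in passage 3 were at 0.324 RPKM with DMSO (25 reads) and 0.979 with Silvestrol (37 reads). In passage 4 they were at 0.654 RPKM with DMSO (12 reads) and 0.644 with Silvestrol (5 reads). The median log2 mRNA ratio was 0.24 over the 4 member inhibitors and −0.13 over the subunits, with 0.04 over all genes.

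INK128 was used to compare mTOR inhibition with eIF4A inhibition in the same cells, and its libraries give FPKM values with no counts and no replicates, so that no test was possible and the depth is unknown. RFs of most members changed little. NFKBIA RFs were at 89.6 FPKM with DMSO and 75.8 with INK128, RELA RFs at 50.9 and 48.8, and NFKB2 RFs at 25.8 and 26.0. RELB, at 12.2 and 17.4 FPKM, and NFKB1, at 20.5 and 25.8 FPKM, had the highest log2 ratios of RFs, 0.51 and 0.33, and the other members lay between −0.24 and 0.12, with a median of 0.01 over all 7155 genes used. No member changed by 2-fold or more relative to that median, where 2.03% of genes were lower and 1.65% higher.

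Total RNA of the members was lower with INK128 for all 10 genes, by log2 ratios of −0.85 to −1.63, but the median gene was at −1.17, and relative to it the members ranged from −0.46 (NFKB1) to 0.32 (NFKBIA). Relative to that median 0.321% of genes, and no member, were at least 2-fold lower, and 5.2% of genes, and no member, at least 2-fold higher. NFKB1 total RNA was at 1.43 FPKM with DMSO and 0.462 with INK128, and NFKBIA total RNA at 2.83 and 1.57. The TE z-score of NFKB1 was 1.64, over the limit of 1.5 that 1.77% of genes passed, while 5.58% lay under −1.5. With a pseudocount of 0.5 FPKM it was 1.499, under the limit. NFKBIA was at −0.99, but at −1.95, past the limit, when the score was taken from the median and the MAD (median absolute deviation), which put NFKB1 at 2.63. TNFAIP3 and REL had a mean total RNA level below the minimum of 0.3 FPKM and were not scored. With Silvestrol, the z-score of NFKB1 was −0.75 and that of NFKBIA 0.65, of the opposite sign in each case. The drugs were at different doses, in separate experiments with different RNA libraries and units, and the difference between them was not tested.

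**Figure D5:**
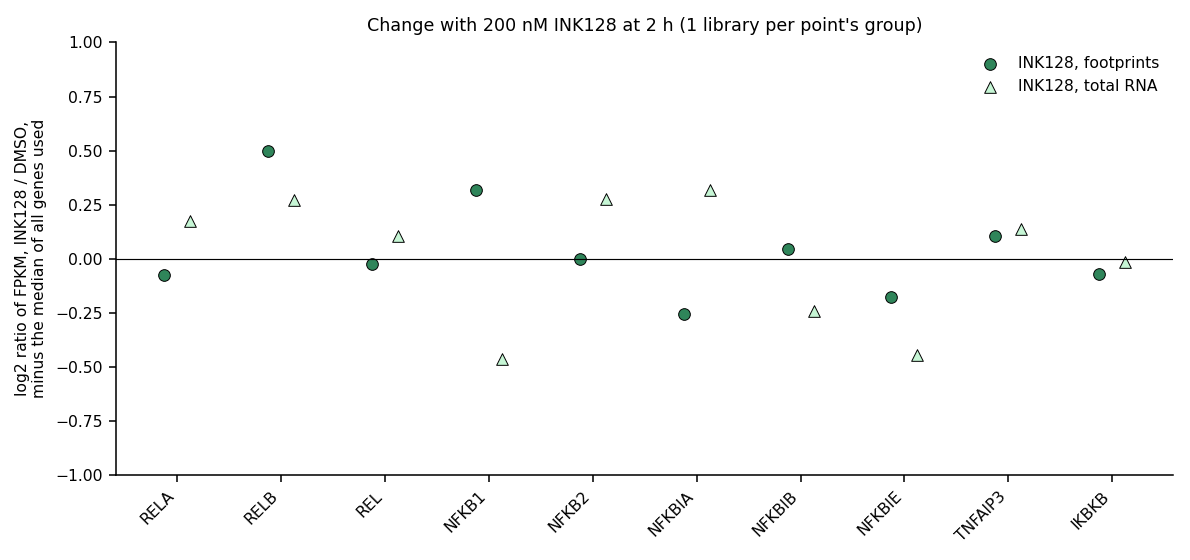
Log2 ratio of FPKM, INK128 over DMSO at 2 h, minus the median of all genes used, for RFs (circles) and total RNA (triangles) of each member, with 1 library per group. RELB had the highest RF value at 0.50 and NFKBIA the lowest at −0.26, and NFKB1 was at 0.32 in RFs and −0.46 in total RNA.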

How the data were processed

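RF and mRNA reads of the Silvestrol experiment were, per the authors, trimmed, depleted of rRNA reads and mapped with Bowtie (at most 2 mismatches) against hg19 plus the canonical UCSC KnownGene set. Uniquely mapped reads were counted. The submitters' processing notes name CASAVA 1.8.1 and Bowtie2 2. The authors deposited read counts and RPKM values per gene, and for INK128 FPKM values, whose program is not given in the sources used here. Columns of the authors' TE, log2 changes, z-scores and mean RPKM were not used, and 0 columns of sample values were unmapped.

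Repeated lines were dropped (38897 to 25758), and of symbols with several entries the one with the highest mean RF RPKM was kept. Symbols turned into dates (28 and 20) were left. In 2 libraries a treatment field conflicts with the title (1 h for Silvestrol RFs at 2 h in passage 3, untreated for DMSO mRNA), and the title was used. For RF counts, edgeR 4.0.16 (R 4.3.3) was run (filterByExpr, TMM, glmQLFit, glmQLFTest) over the 2 DMSO and 2 Silvestrol libraries at 2 h, and TE as the interaction of assay and treatment over 6 libraries. Benjamini-Hochberg adjustment was over all genes tested, with a threshold of 0.05. Replicates 1 and 2 are passages 3 and 4, and their deviations from the group means correlated between DMSO and Silvestrol (r = 0.679 over 11147 genes), so the passage was also fitted as a block. Unblocked p-values measure the spread between 2 cultures, moderated over genes. Blocked fits had 1 residual degree of freedom and an infinite prior, so their p-values rest on a spread common to all genes, and the mRNA has no second culture.

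TE z-scores used RPKM above 0, mean RF RPKM of at least 1 and mean mRNA RPKM of at least 0.3 (FPKM 0.3 for INK128). Counting intervals are exact binomial intervals at 95% on the reads of 2 libraries. Alternatives were DESeq2 1.42.0, scaling by RLE, no filter, an offset for the counted length (reads over RPKM, which differed between libraries), leaving out each library, pseudocounts, and z-scores centred on the median and scaled by the MAD. Sequence features are of MANE Select transcripts, folded with RNAfold 2.7.2. Protein sequences were not analysed here. The fits were also run on simulated counts with a fixed dispersion and no passage effect. Such counts cannot show how the fits handle the pairing or the spread between cultures. Named are the 10 members, up to 3 of the lowest and highest called genes per role list by the RF change without the block, and the 3 genes most like NFKBIA. The members and lists were chosen with earlier results of these data known. Python 3.11.15 was used.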

Additional observations from a re-analysis of the deposited data

Results flagged for a closer look

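The RF change of NFKBIA differed between 2 h and 1 h of Silvestrol by 1.04 on the log2 scale in the edgeR fit with the passage as a block, from a log2 ratio of −0.27 at 1 h to 0.68 and 0.91 at 2 h. This difference was called in that fit only (adjusted p = 3.24e-07), in which 0.73% of the 12059 genes tested were called as higher. The test was added after the pattern was seen, with 1 library per treatment at 1 h, so it is no independent support. RELA was at −0.094 at 1 h and NFKBIB at −0.049, while both were higher at 2 h in both passages. The counting interval of NFKBIB at 1 h, −0.16 to 0.067, covered both signs. The median gene was at −0.18 at 1 h, and relative to it RELA and NFKBIB were higher, at 0.091 and 0.14. The signs of RELA and NFKBIB at 1 h thus depended on that shift. For these genes the difference was not called (adjusted p = 0.386 and 0.309 with the block in edgeR).

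With INK128, 4 members moved the opposite way from both passages of Silvestrol at 2 h in RFs: RELA at −0.060, NFKB1 at 0.33, NFKB2 at 0.015 and NFKBIA at −0.24. The difference between the drugs was not tested, since INK128 has 1 library per group, and the values of RELA and NFKB2 lie near 0.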

How the results depend on the processing

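The passage block, which pairs the cultures, moved the counts most: in RFs it called 2986 genes lower and 2673 higher, with 1 and 4 members, and in TE 2482 and 2427, with 2 and 3 members. In the difference of 2 h and 1 h it called 123 lower and 88 higher, with 1 member higher. It also changed calls in the role lists, as given above, and the call of no other member. DESeq2 called 599 genes higher in RFs, and 546 lower and 387 higher in TE. Without the filter, 294 genes were higher in RFs, with 1 member lower (NFKB1, adjusted p = 0.0499 in edgeR), and 186 lower and 22 higher in TE. With the length offset 1 member was lower in RFs (NFKB1, adjusted p = 0.0442 in edgeR). Leaving out 1 library gave 0 to 648 genes lower and 0 to 162 higher in RFs, with 0 to 1 member higher, and 0 to 1020 lower and 0 to 863 higher in TE, with 0 to 1 member in each direction. The same step reversed the RF change of NFKB2 (−0.55 to 0.26, with 0.020 without passage 4 Silvestrol), NFKBIE (−0.17 to 0.51) and TNFAIP3 (−0.22 to 1.57, with −0.16 without passage 3 Silvestrol), and the TE change of TNFAIP3 (−1.56 to 0.25), NFKB2 (−0.35 to 0.48, with −0.31 without passage 3 Silvestrol) and NFKBIE (−0.043 to 0.65). In the INK128 z-scores, a pseudocount or no minimum left 0 members over 1.5, no minimum gave 736 genes under −1.5 and 488 over 1.5, and median and MAD gave 878 and 487, with 1 member under −1.5 (NFKBIA, −1.95). The members' median RF change at 1 h was −0.21 by RPKM and 0.019 with TMM scaling. Their median INK128 total RNA change, −1.05, was −0.63 with a pseudocount and 0.12 after the median of all genes was subtracted, where REL was at 0.10 and TNFAIP3 at 0.14. The cause was not tested. In passage 4, TNFAIP3 rests on 45 and 36 RF reads.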
